A study of Rattus norvegicus with 9 samples.

Results

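The proteins of the cytosolic ribosome were examined through 44 genes on a rat expression array, 30 of the large subunit and 14 of the small subunit, of 14217 genes to which the array's probe table gives a symbol. A gene was a member when its symbol was that of a cytosolic ribosomal protein (an Rpl or Rps symbol with a number and at most an a, x or l after it, Rplp0, Rplp1, Rplp2 or Rpsa) and a probe set, the group of short probes that reads 1 transcript, carried that symbol alone. The choice used names only and no measured value. Of 79 rat RefSeq symbols of this form, 35 were not members, and 27 of these 35 were listed only on probe sets that name several genes. Where a gene had more than 1 probe set, the set of highest mean log2 signal stood for it.

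Each of the 3 groups held 3 arrays from separate biological repeats. P-RPC are primary retinal progenitor cells, obtained by papain digestion of retinal tissue of Sprague-Dawley (SD) rats at postnatal day 1. No sorting was described, so other cells of the newborn eye can be present. rESC-RPC1 and rESC-RPC2 are retinal progenitor cells made from 1 line of Dark Agouti (DA) rat embryonic stem cells, DA8-16. Both began as serum-free floating aggregates with Matrigel and the Wnt inhibitor IWR-1e. Medium with fetal bovine serum replaced this before day 10, and both were kept in serum until their harvest on day 16. The aggregates were dissociated for adherent culture on day 10 for rESC-RPC1, which also received N2 medium from day 14, and on day 14 for rESC-RPC2. Strain and culture therefore cannot be told apart from cell source in either comparison with P-RPC, and the medium cannot be told apart from the time in adherent culture between the rESC-RPCs.

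Ribosomal proteins assemble with ribosomal RNA into a small subunit, which decodes the mRNA, and a large subunit, which joins the amino acids. Each protein is present in about a single copy per ribosome, and their mRNAs are among the most abundant of growing cells. Most of these mRNAs begin with a C followed by a run of pyrimidines, the 5′ terminal oligopyrimidine tract, through which the mTOR pathway adjusts their translation together.

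The tract can be looked for around the annotated gene starts, and the windows below are shown to let the run be read in members that departed and in a member that did not. Promoters were taken from RefSeq on build GRCr8, 37 of the 44 members matched by gene ID, and the search was for an unbroken run of 8 or more C or T bases within 20 bases either side of the start. On the gene's own strand, which reads as the mRNA does, the run was present in 25 of 37 members (67.6%) and in 15.5% of all 27457 promoters of the same length. On the opposite strand it was present in 1 member (2.70%) and in 17.1% of all promoters. The longest run had a median of 10 bases in the members and 5 in all promoters. The annotated first base was a C in 14 of the 37 members (37.8%) and in 24.2% of all promoters. A run in this window is a match of letters and not a mapped transcript start. In the windows of 30 bases, written 5′ to 3′ on the gene's strand, capitals mark the longest run. Rpl34 (chr2:221962269-221962298, minus strand) hardly differed between the groups, Rpl21 (chr12:13386144-13386173, minus), Rpl13a (chr1:104748899-104748928, minus), Rps3a (chr2:173827028-173827057, minus) and Rplp0 (chr12:46718376-46718405, minus) were lower in rESC-RPC2, Rpl28 (chr1:78083518-78083547, minus) was lower on its probe set in both rESC-RPCs, and Rps27l (chr8:76443643-76443672, plus) passed the test in no comparison.
Rpl34: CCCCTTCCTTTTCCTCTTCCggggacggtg
Rpl21: CCCTCTTCCTTTCCgccggggcagccatct
Rpl13a: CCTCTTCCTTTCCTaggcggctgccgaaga
Rps3a: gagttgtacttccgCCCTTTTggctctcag
Rplp0: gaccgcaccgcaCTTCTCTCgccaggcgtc
Rpl28: ccccgcccctagtgTCTTTCTTTCCgtctc
Rps27l: gTTTattcatttgtcattatttgtggtgtc
The run was 20 bases long in Rpl34, 14 in Rpl21 and in Rpl13a, 11 in Rpl28, 8 in Rplp0, 7 in Rps3a and 3 in Rps27l. Counted from the annotated start, it began at -20 in Rpl21, -15 in Rpl34 and in Rpl13a, -14 in Rps27l, -3 in Rplp0 and -1 in Rps3a and in Rpl28. The runs of Rpl21, Rpl13a and Rps27l thus ended before the annotated start and lie outside the annotated mRNA. Rpl11, which like Rpl34 hardly differed between the groups, also had a longest run of 3 bases.

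The members lay at the top of the signal scale in every group. Signals are MAS 5.0 intensities, a linear scale on which the authors brought every array to a common trimmed mean, and the detection threshold used here was the median of all values, a signal of 123 (log2 6.94). Of the 44 members, 41 reached it on at least 3 of the 9 arrays and were tested, among 9956 genes in all. For 38 of these 41 the mean log2 signal was between 13.64 and 14.71, and the lowest of the 38, Rpsa, lay at the 99.5th percentile of the probe sets. The highest signal of any probe set on an array was between 28592 and 32933, and Rps29, a small-subunit protein, reached 28191 on 1 rESC-RPC2 array and 28706 on 1 P-RPC array. How far the top of the scale holds differences of such signals together was not tested. Probes differ in how strongly they bind, so the levels describe probe sets and do not rank the amounts of different transcripts.

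**Figure D1:**
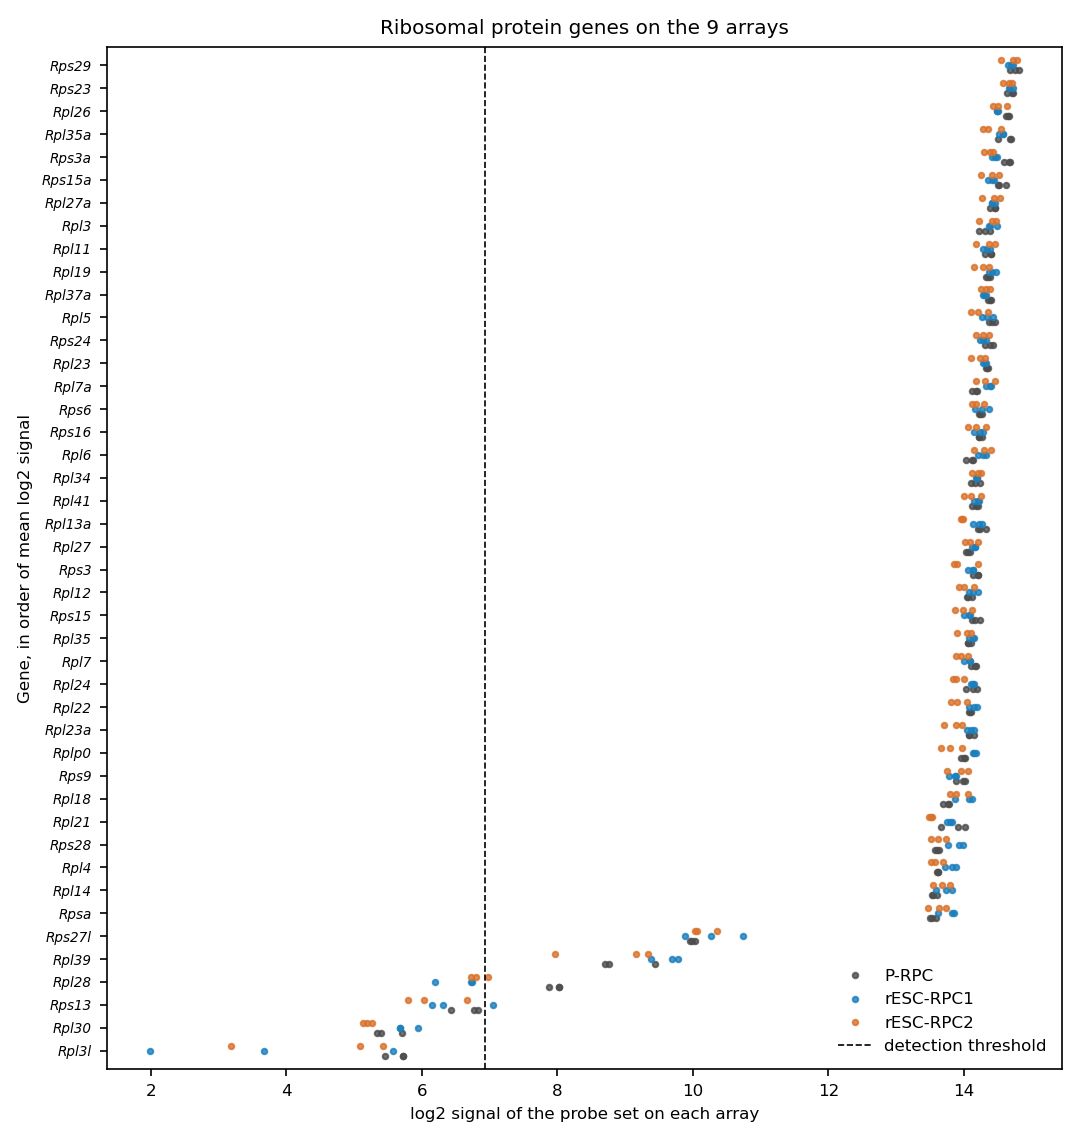
The log2 signal of the probe set of each of the 44 ribosomal protein genes is plotted for each of the 9 arrays, coloured by group, with the detection threshold as a dashed line. The 38 genes above log2 13.64 hold together on all arrays, and 6 genes (Rps27l, Rpl39, Rpl28, Rps13, Rpl30 and Rpl3l) lie far below them.

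The other 6 members were read by weaker probe sets. Rpl3l, the large-subunit paralog known from striated muscle, was under the threshold on all 9 arrays, with 52.7, 52.8 and 43.9 on the P-RPC arrays, 3.97, 12.7 and 47.9 on those of rESC-RPC1 and 43.0, 9.09 and 34.1 on those of rESC-RPC2, and it had the widest spread between arrays within both rESC-RPC groups (log2 SD 1.80 and 1.21). Rpl30 was also under it on all 9 arrays, with means of 44.8 ± 6.37 for P-RPC, 54.7 ± 5.90 for rESC-RPC1 and 36.7 ± 1.71 for rESC-RPC2 (SD, n = 3). Rps13 passed it on 1 array, an rESC-RPC1 array with 133, against 55.3 to 113 on the other 8. These 3 genes were not tested. The array holds 4 more probe sets that list Rpl28, Rpl30 or Rps13 beside other symbols, and these 4 had mean log2 signals between 13.76 and 14.22, so a weak signal of a single-symbol probe set does not show that the gene was silent.

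Each array held the members at nearly the same level. The median log2 signal over the 41 tested members was 14.14, 14.17 and 14.21 on the P-RPC arrays, 14.16, 14.14 and 14.20 on the rESC-RPC1 arrays and 14.21, 14.01 and 14.09 on the rESC-RPC2 arrays. The lowest was that of rESC-RPC2 replicate 2, and the other 8 arrays spanned 14.09 to 14.21. The members took 3.35% ± 0.0244 of an array's summed signal for P-RPC, 3.37% ± 0.0690 for rESC-RPC1 and 3.15% ± 0.193 for rESC-RPC2 (SD, n = 3), with 2.96% on rESC-RPC2 replicate 2. For a single member the spread between replicate arrays was a median log2 SD of 0.084, against 0.17 over all genes tested and 0.081 over the 180 other genes with a mean log2 signal of at least 13. In bulk RNA a smaller share of cells with a transcript and less of it per cell cannot be told apart.

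The members' differences between groups spread less than those of the other genes described here, a comparison made with no test. In rESC-RPC1 against P-RPC the members' log2 fold changes had a median of 0.0045 and an SD of 0.28, and over all genes the median was -0.0052 and the SD 1.22. In rESC-RPC2 against P-RPC the median was -0.063 and the SD 0.21, against -0.016 and 1.25 over all genes. In rESC-RPC2 against rESC-RPC1 the median was -0.083 and the SD 0.16, against -0.034 and 0.78. Without Rpl28, Rpl39 and Rps27l the members' SDs were 0.12, 0.13 and 0.10, while the 180 other genes with a mean log2 signal of at least 13 had SDs of 0.48, 0.48 and 0.31 in the same order. These 180 genes were not matched to the members in signal, since their median log2 was 13.36 to 13.48 over the arrays, against 14.04 to 14.25 for the 38 strongly read members. Subunits of the proteasome, another large complex (35 genes tested), had SDs of 0.38, 0.40 and 0.56, and proteins of the mitochondrial ribosome (73 genes tested) had 0.37, 0.41 and 0.26.

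**Figure D2:**
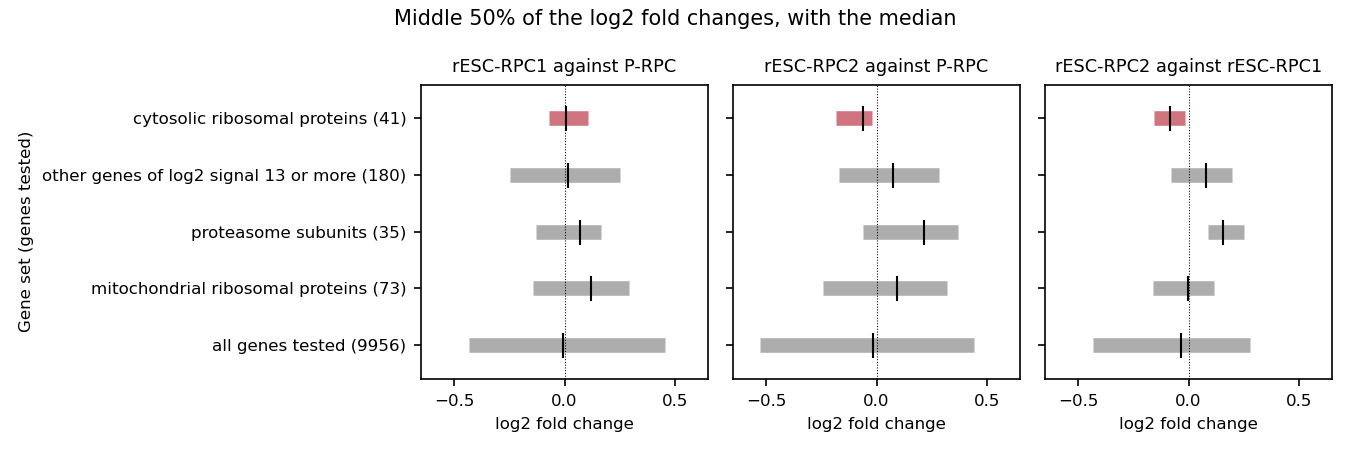
Bars span the middle 50% of the log2 fold changes of each gene set in each comparison, and black ticks mark the medians. The bar of the 41 cytosolic ribosomal proteins is the shortest of the 5 sets in all 3 comparisons and lies below 0 in both comparisons of rESC-RPC2.

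Within 0.25 of no change on the log2 scale (1.19-fold) lay 36, 37 and 36 of the 41 members in rESC-RPC1 against P-RPC, rESC-RPC2 against P-RPC and rESC-RPC2 against rESC-RPC1. The shares over all genes were 31.4%, 28.8% and 38.4%, and over the 180 other strongly read genes 50%, 55.6% and 68.3%. A tighter statement comes from limma's 95% intervals, which lay wholly within 0.5 of no change (1.41-fold) for 38, 37 and 37 of the 41 members and for 26.6%, 24.2% and 31.8% of all genes. Over those 180 genes, 121, 117 and 140 intervals did so.

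A change of at least 2-fold at an adjusted p under 0.05 (limma, Benjamini-Hochberg over all 9956 genes) was called for 1 member in rESC-RPC1 against P-RPC, where 21.5% of all genes were called, for 1 in rESC-RPC2 against P-RPC, where 23.7% were, and for 0 in rESC-RPC2 against rESC-RPC1, where 14.3% were. The called member was Rpl28 both times, and in the last comparison 0 members reached 2-fold at an unadjusted p under 0.05 by limma or by the methods' t-test. Among the 180 other genes with a mean log2 of at least 13, 7, 11 and 3 were called. The comparisons with P-RPC share the P-RPC arrays, and all 3 share arrays in pairs.

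At any fold, rESC-RPC1 had 6 members above P-RPC and 3 below it, against 30.0% and 30.1% of all genes. In rESC-RPC2 against P-RPC 1 was higher and 12 lower, against 30.3% and 32.9%. Set against rESC-RPC1, rESC-RPC2 had 0 higher and 8 lower, against 21.2% and 27.0%, and 0 members were higher at an unadjusted p under 0.05. Of the 41 members, 31 had a log2 fold change below 0 in rESC-RPC2 against P-RPC and 34 in rESC-RPC2 against rESC-RPC1. Of all 9956 genes 5070 and 5247 were below 0 in these comparisons, and of the 180 other genes with a mean log2 signal of at least 13, 72 and 65. These small shifts varied with the scaling and with single arrays. In rESC-RPC2 against P-RPC the members' median was -0.032 after quantile normalization, with 4 higher and 14 lower. Without rESC-RPC2 replicate 2 it was -0.0076 with 3 higher and 7 lower. With each array centred on its median it was 0.019 with 1 higher and 3 lower. The array medians used for this centring were signals of 113 to 128. They lie near the detection threshold of 123 by definition, since that threshold is the median of all values. With that centring 2 members were higher and 1 lower in rESC-RPC1 against P-RPC, and 1 was lower in rESC-RPC2 against rESC-RPC1. The calls kept with that centring were those of Rpl28, Rpl18 and Rps28 in the first comparison, of Rpl28, Rpl21, Rpl13a and Rpl6 in the second and of Rplp0 between the rESC-RPCs. Leaving out 1 array at a time gave 3 to 11, 6 to 17 and 6 to 15 members past the test in the 3 comparisons.

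**Figure D3:**
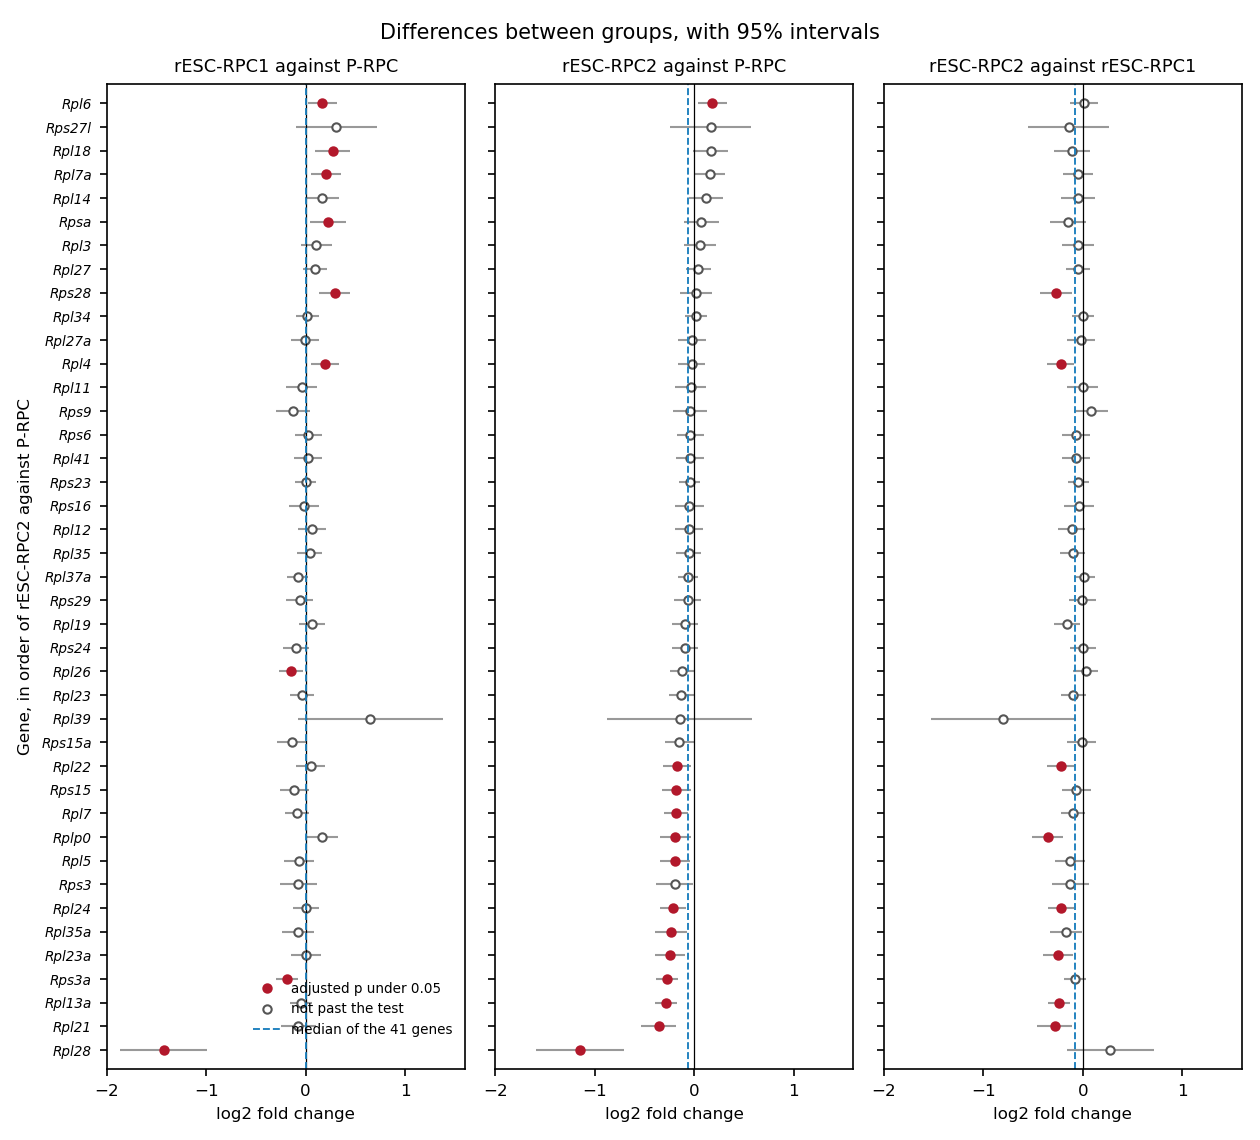
Log2 fold changes of the 41 tested members in the 3 comparisons are plotted with limma's 95% intervals, filled where the adjusted p was under 0.05, and the dashed line is the members' median. Rpl28 lies far to the left in both comparisons with P-RPC, Rpl39 has the widest intervals, and most other members lie within 0.25 of 0.

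The subunits were also described apart. The 28 tested members of the large subunit had median log2 fold changes of 0.023, -0.078 and -0.097 in rESC-RPC1 against P-RPC, rESC-RPC2 against P-RPC and rESC-RPC2 against rESC-RPC1, and the 13 of the small subunit -0.059, -0.048 and -0.063. Their SDs were 0.32, 0.25 and 0.18 for the large subunit, which holds Rpl28 and Rpl39, and 0.17, 0.12 and 0.089 for the small. At any fold, 4, 1 and 0 large-subunit members were higher and 2, 10 and 7 lower, and 2, 0 and 0 small-subunit members were higher and 1, 2 and 1 lower. The 10 of 28 large-subunit members lower in rESC-RPC2 than in P-RPC are a share near the 32.9% of all genes. Whether the subunits differed from each other was not tested.

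Rpl28, a protein of the large subunit, departed most, on a weak probe set. Its signal was 235, 260 and 262 on the P-RPC arrays, 105, 107 and 73.3 on the rESC-RPC1 arrays and 126, 111 and 105 on the rESC-RPC2 arrays. All P-RPC arrays were above the detection threshold and above every rESC-RPC array, all rESC-RPC1 arrays were under the threshold, and 1 of 3 rESC-RPC2 arrays was just above it. With the arrays under the threshold raised to it, P-RPC was at least 2.06-fold above rESC-RPC1 and at least 2.04-fold above rESC-RPC2. The limma fit on the signals as they stood gave adjusted p = 0.000133 and 0.000516 in that order. Rpl28 passed the filter through the P-RPC arrays, so that a difference from P-RPC was built into its being tested and these p-values are no support for it, and with the threshold at the 75th percentile it was not tested. The rESC-RPCs lay too near the threshold to be compared with each other. A strong probe set that lists Rpl28 with other symbols had log2 fold changes of 0.098, 0.0021 and -0.096 (adjusted p = 0.203, 0.979 and 0.239), so the fall on the weak probe set was not seen there.

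Rpl39, a small protein that lines the exit tunnel of the large subunit, was next in size but did not pass. Its signal was 434, 417 and 693 on the P-RPC arrays, 879, 668 and 828 on the rESC-RPC1 arrays and 572, 649 and 249 on the rESC-RPC2 arrays. The rESC-RPC1 arrays lay above all rESC-RPC2 arrays and overlapped those of P-RPC, and Rpl39 had the largest spread between arrays of all members in P-RPC (log2 SD 0.41). The log2 fold change was 0.65 ± 0.33 from P-RPC to rESC-RPC1 (adjusted p = 0.110), -0.15 ± 0.33 from P-RPC to rESC-RPC2 (adjusted p = 0.712) and -0.80 ± 0.33 between the rESC-RPCs (adjusted p = 0.0670). The last became a 2-fold call without rESC-RPC2 replicate 2, at -1.06 (adjusted p = 0.0314), and was -0.37 (adjusted p = 0.220) without rESC-RPC2 replicate 3. Without that replicate rESC-RPC1 also exceeded P-RPC for Rpl39 (0.65, adjusted p = 0.0193).

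**Figure D4:**
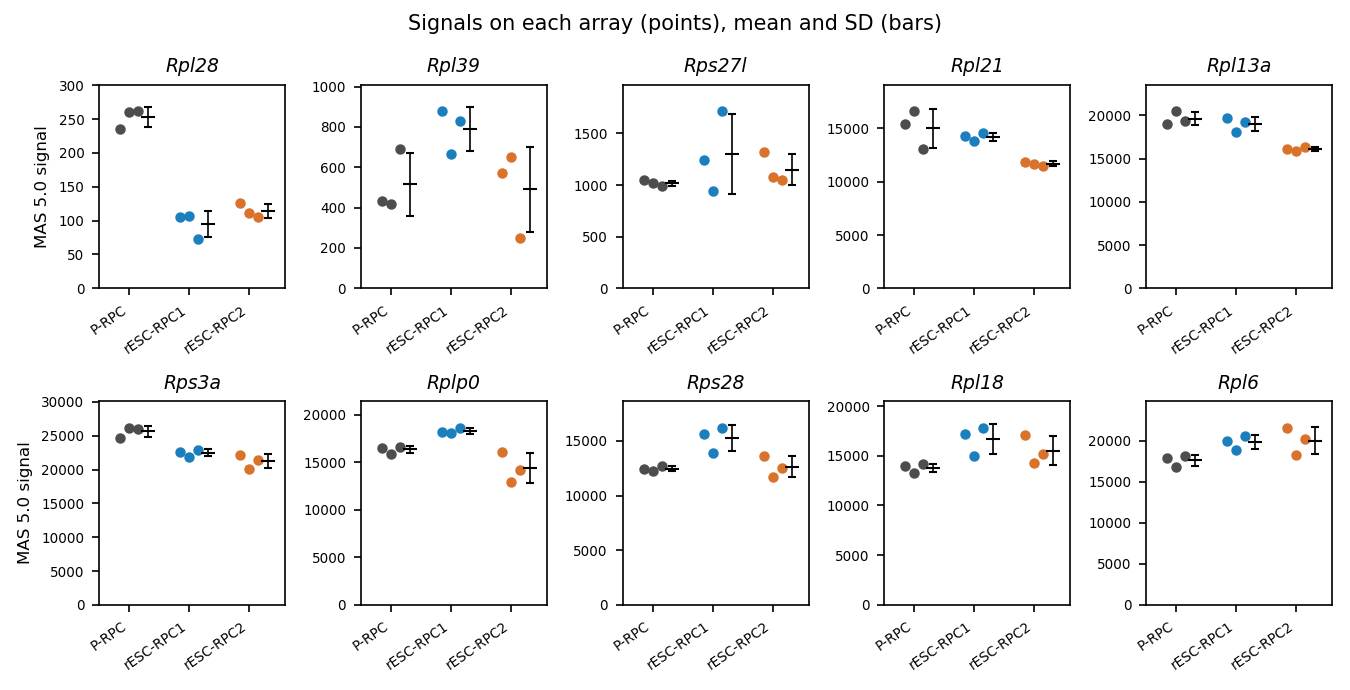
Signals of 10 members are plotted for each array (points) with the group mean and SD (bars), each panel on its own linear axis from 0. Rpl28, read here by a weak probe set that passed the filter through the P-RPC arrays, is higher on those arrays. Rpl21 and Rpl13a are lowest on all 3 rESC-RPC2 arrays, Rps3a is highest on all 3 P-RPC arrays, and Rplp0, Rps28 and Rpl18 are highest on average in rESC-RPC1.

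Rps27l, a paralog of the small-subunit protein Rps27 and a known p53 target, was the remaining member of moderate signal. It measured 1045, 1015 and 993 on the P-RPC arrays, 1239, 943 and 1716 on the rESC-RPC1 arrays and 1319, 1074 and 1051 on the rESC-RPC2 arrays. The rESC-RPC1 arrays spread on both sides of the P-RPC arrays, and the log2 fold changes of 0.31 ± 0.18, 0.17 ± 0.18 and -0.14 did not pass (adjusted p = 0.170 and 0.446 in the comparisons with P-RPC).

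Among the strongly read members, those lower in rESC-RPC2 moved by about 1.1- to 1.3-fold. Rpl21, of the large subunit, measured 15425, 16627 and 13043 on the P-RPC arrays, 14290, 13778 and 14565 on the rESC-RPC1 arrays and 11895, 11694 and 11468 on the rESC-RPC2 arrays. All 3 rESC-RPC2 arrays lay under all others, at a log2 fold change of -0.36 ± 0.079 against P-RPC (1.28-fold lower, adjusted p = 0.00257) and -0.28 ± 0.079 against rESC-RPC1 (adjusted p = 0.0133). Rpl13a, a large-subunit protein that also acts as a translational repressor after interferon, measured 18977, 20478 and 19368 on the P-RPC arrays, 19682, 18045 and 19211 on the rESC-RPC1 arrays and 16088, 15853 and 16294 on the rESC-RPC2 arrays. Here too the rESC-RPC2 arrays were apart from the rest, by -0.29 ± 0.050 (adjusted p = 0.000614) and -0.24 ± 0.050 (adjusted p = 0.00296). Both genes passed against P-RPC under all 23 alternatives run, median centring included. Against rESC-RPC1 the call of Rpl13a was lost with median centring (adjusted p up to 0.0817), and that of Rpl21 with median centring and with centring on the members' median (adjusted p up to 0.0641).

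Rps3a, of the small subunit, was lower in both rESC-RPCs on the deposited scale. Its signal was 24717, 26207 and 26072 on the P-RPC arrays, 22585, 21901 and 22947 on the rESC-RPC1 arrays and 22145, 20082 and 21484 on the rESC-RPC2 arrays. No array of either rESC-RPC group reached the lowest P-RPC array, and the log2 fold changes were -0.19 ± 0.050 (adjusted p = 0.00711) and -0.27 ± 0.050 (adjusted p = 0.000751). Both calls were lost with median centring, and that for rESC-RPC1 also with no variance trend (adjusted p up to 0.119 and 0.0709 in that order).

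Rplp0, the base of the stalk that recruits elongation factors to the large subunit and a common reference gene in quantitative PCR, differed most between the rESC-RPCs among the strongly read members. It measured 16466, 15882 and 16627 on the P-RPC arrays, 18196, 18044 and 18626 on the rESC-RPC1 arrays and 16052, 12930 and 14171 on the rESC-RPC2 arrays. The rESC-RPC1 arrays were above all others, and rESC-RPC2 replicate 1 lay within the P-RPC range. The difference between the rESC-RPCs was -0.35 ± 0.071 (1.28-fold lower in rESC-RPC2, adjusted p = 0.00221, past the test under 22 of 23 alternatives), that of rESC-RPC2 from P-RPC -0.19 ± 0.071 (adjusted p = 0.0385, past the test under 12 of 23 alternatives) and that of rESC-RPC1 from P-RPC 0.16 ± 0.071 (adjusted p = 0.0672).

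Rpl23a, which contacts the signal recognition particle, and Rpl4 were both lower in rESC-RPC2 than in rESC-RPC1, and each also differed from P-RPC in 1 comparison. Rpl23a measured 18127, 17239 and 17250 on the P-RPC arrays, 18219, 16925 and 17644 on the rESC-RPC1 arrays and 16119, 13368 and 15114 on the rESC-RPC2 arrays, so that rESC-RPC2 alone was low (-0.24 ± 0.068, adjusted p = 0.00977 against P-RPC, and -0.25 ± 0.068, adjusted p = 0.0124 against rESC-RPC1). Rpl4 measured 12621, 12478 and 12569 on the P-RPC arrays, 14476, 13560 and 15163 on the rESC-RPC1 arrays and 13280, 11671 and 12152 on the rESC-RPC2 arrays. Rpl4 was thus higher in rESC-RPC1 than in both other groups (0.20 ± 0.062, adjusted p = 0.0184 against P-RPC, and -0.22 ± 0.062, adjusted p = 0.0136 for rESC-RPC2 against rESC-RPC1). Rpl26 lay 1.11-fold under its P-RPC level in rESC-RPC1, with means of 23123 ± 159 and 25629 ± 395 (SD, n = 3, log2 fold change -0.15 ± 0.055, adjusted p = 0.0374). Between the rESC-RPCs Rpl26 did not pass (0.029 ± 0.055, adjusted p = 0.695). With median centring none of these calls of Rpl23a, Rpl4 and Rpl26 was kept, and that of Rpl26 passed under 13 of 23 alternatives.

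Rpl24 and Rpl22, of the large subunit, were lower in rESC-RPC2 than in both other groups. For Rpl24 the means were 17864 ± 1089 for P-RPC, 17928 ± 295 for rESC-RPC1 and 15409 ± 837 for rESC-RPC2 (adjusted p = 0.00898 and 0.0106), and for Rpl22 17455 ± 231, 18087 ± 757 and 15556 ± 1353 (adjusted p = 0.0389 and 0.0163; SD, n = 3). Rpl35a, Rpl5, Rpl7 and Rps15 were lower in rESC-RPC2 than in P-RPC by 1.13- to 1.18-fold, at adjusted p from 0.0132 to 0.0348. The calls against P-RPC were kept under 20 of 23 alternatives for Rpl24 and Rpl7, 15 for Rpl35a, 14 for Rpl5, 13 for Rps15 and 11 for Rpl22, and median centring was among the alternatives that lost each of them. Rpl5 carries 5S ribosomal RNA into the large subunit together with Rpl11, and Rpl11 stayed within 0.04 of no change in all 3 comparisons.

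The members that rose from P-RPC to rESC-RPC1 were Rps28, Rpl18, Rpsa, Rpl7a, Rpl4 and Rpl6. Rps28, a small-subunit protein near the mRNA exit, measured 12465, 12229 and 12695 on the P-RPC arrays, 15673, 13922 and 16227 on the rESC-RPC1 arrays and 13651, 11745 and 12566 on the rESC-RPC2 arrays. All rESC-RPC1 arrays were above all others, by 0.29 ± 0.071 against P-RPC (1.22-fold, adjusted p = 0.00517) and with -0.27 ± 0.071 for rESC-RPC2 against rESC-RPC1 (adjusted p = 0.00994), and rESC-RPC2 overlapped P-RPC. The call against P-RPC was kept under all 23 alternatives, and that between the rESC-RPCs was lost with median centring and with the methods' t-test adjusted.

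Rpl18, of the large subunit, had means of 13788 ± 427 for P-RPC, 16684 ± 1482 for rESC-RPC1 and 15500 ± 1466 for rESC-RPC2 (SD, n = 3), with 0.27 ± 0.080 on the log2 scale for rESC-RPC1 (adjusted p = 0.0138) and 0.17 ± 0.080 for rESC-RPC2 (adjusted p = 0.0959). All arrays of both rESC-RPCs lay above the P-RPC arrays. The call for rESC-RPC1 was kept under 20 of 23 alternatives and lost without P-RPC replicate 2, without rESC-RPC1 replicate 1 and with the methods' t-test adjusted (adjusted p up to 0.0544). Rpl6 measured 17867, 16844 and 18097 on the P-RPC arrays, 19968, 18888 and 20532 on the rESC-RPC1 arrays and 21587, 18263 and 20171 on the rESC-RPC2 arrays. It was the member higher than P-RPC in both rESC-RPCs, by 0.17 ± 0.065 (adjusted p = 0.0446) and 0.18 ± 0.065 (adjusted p = 0.0317), and these calls were kept under 13 and 15 of 23 alternatives.

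Rpsa, of the small subunit and also known as the laminin receptor, was higher in rESC-RPC1 by 0.22 ± 0.081 (adjusted p = 0.0351), and Rpl7a by 0.21 ± 0.068 (adjusted p = 0.0208). These calls were kept under 13 and 18 of 23 alternatives, and neither with median centring. Rpsa was read by 3 probe sets, whose log2 fold changes in rESC-RPC1 were 0.22, 0.25 and 0.42. The most even of the members shown was Rpl34, at 18484 ± 825 for P-RPC, 18707 ± 158 for rESC-RPC1 and 18733 ± 836 for rESC-RPC2 (SD, n = 3), with a difference of 0.0011 between the rESC-RPCs and a 95% interval from -0.11 to 0.11. Rps6, the substrate of the S6 kinases, was within 0.04 of no change in both comparisons with P-RPC. Rps29, Rps23 and Rpl26 had the strongest probe sets. Rps23, which lies at the decoding centre, measured 26473 ± 771, 26487 ± 526 and 25691 ± 1170 in the 3 groups.

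The other members that lay farthest from the median did not pass the test. In rESC-RPC1 against P-RPC these were Rps15a (-0.14 ± 0.067, adjusted p = 0.0965) and Rps9 (-0.12 ± 0.077, adjusted p = 0.187). In rESC-RPC2 against P-RPC they were Rpl7a (0.16 ± 0.068, adjusted p = 0.0635) and Rpl14 (0.12 ± 0.077, adjusted p = 0.206). Between the rESC-RPCs Rps9 (0.087 ± 0.077, adjusted p = 0.380) and Rpl37a (0.016 ± 0.046, adjusted p = 0.794) lay above the median.

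Of the 5 members with several probe sets (Rpl14, Rpl3, Rpl7, Rps24 and Rpsa), 0 had sets that differed by 1 or more on the log2 scale in a fold change. The closest to that was Rps24, whose transcripts are spliced in several forms at the 3′ end. Its strong probe set had means of 21289 ± 916 for P-RPC, 19952 ± 644 for rESC-RPC1 and 19961 ± 1312 for rESC-RPC2 (SD, n = 3), and a weak probe set had, in that order, 604 ± 46.1, 356 ± 50.3 and 304 ± 8.17. The weak set fell by 0.77 and 0.99 on the log2 scale (adjusted p = 0.000449 and 7.23e-05, Benjamini-Hochberg over all probe sets tested), while the strong set changed by -0.093 and -0.094. A probe set of Rpl3 that may cross-hybridise was lower in rESC-RPC2 than in rESC-RPC1 by -0.74 ± 0.20 (adjusted p = 0.0122), against -0.048 on its strong set.

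Of the 33 probe sets that list several genes, at least 1 of them with a symbol of this form, 30 were strongly read. Over all 33 sets the median log2 fold changes were 0.0090, -0.050 and -0.068 in the order above, and the SDs were 0.18, 0.20 and 0.096. The SDs were 0.28, 0.21 and 0.16 for the 41 tested members and 0.12, 0.13 and 0.10 for the 38 strongly read members. Over the 3 comparisons the log2 fold changes of the 33 sets lay between -0.63 and 0.51, the highest on a set of mean log2 11.33. At any fold (Benjamini-Hochberg over all probe sets tested) 4, 4 and 0 sets were higher and 5, 10 and 4 lower. In the fit over genes 30.0%, 30.3% and 21.2% of all genes were higher and 30.1%, 32.9% and 27.0% lower. In rESC-RPC2 against P-RPC sets listing Rpl36a (-0.63), Rps7 (-0.44) and Rps25 (-0.39) fell below the lowest of the 38 members (-0.36). Another set listing Rpl36a read 0.054. Rpl7l1, a paralog outside the set with a role in ribosome assembly, went from 3017 ± 103 for P-RPC to 2180 ± 195 for rESC-RPC1 and 1615 ± 187 for rESC-RPC2 (SD, n = 3), a fall of 0.47 and 0.91 on the log2 scale (adjusted p = 0.00226 and 2.53e-05).

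Other genes of translation were measured beside the ribosomal proteins. Of 13 tested elongation and termination factors, rESC-RPC1 had 7 above P-RPC and 1 below it, and 10 were higher in rESC-RPC2, with median log2 fold changes of 0.29 and 0.40. Over all genes 30.0% and 30.3% were higher in these comparisons. Eef1d, a subunit of the exchange factor of elongation factor 1, rose from 3249 ± 48.0 to 5845 ± 850 and 6286 ± 607, by 0.84 ± 0.11 and 0.95 ± 0.11 (adjusted p = 6.90e-05 and 2.57e-05). Eef1a1, which brings aminoacyl-tRNA to the ribosome and whose mRNA also carries the pyrimidine tract, was 21461 ± 280, 21761 ± 462 and 21534 ± 1503 and did not pass in any comparison. Of 33 initiation factors, rESC-RPC1 had 11 above P-RPC and 4 below it, and rESC-RPC2 had 12 and 3. Those higher are shares near the 30.0% and 30.3% of all genes. By limma, 0 genes of either list reached 2-fold at an adjusted or an unadjusted p under 0.05.

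Of 59 tested factors of ribosome assembly and ribosomal RNA synthesis, rESC-RPC1 had 2 above P-RPC and 20 below it, rESC-RPC2 had 23 above P-RPC and 9 below it, and 23 were higher in rESC-RPC2 than in rESC-RPC1, with medians of -0.16, 0.10 and 0.28. Over all genes 30.1% were lower in rESC-RPC1 against P-RPC, 30.3% higher in rESC-RPC2 against P-RPC and 21.2% higher between the rESC-RPCs. Those called at 2-fold were lower in rESC-RPC1. They were Ltv1, which is needed to build the small subunit (1148 ± 40.5 to 518 ± 80.1, -1.16 ± 0.14, adjusted p = 4.21e-05), Taf1d, a part of the RNA polymerase I initiation factor (1792 ± 393 to 698 ± 17.7, -1.34 ± 0.16, adjusted p = 5.17e-05), Rrp9 (-1.04 ± 0.14) and Utp18 (-1.03 ± 0.16). Ltv1 was also called lower in rESC-RPC2 (-1.07 ± 0.14, adjusted p = 6.46e-05). Between the rESC-RPCs Nop56, of the small nucleolar particles that guide methylation of ribosomal RNA, was 2945 ± 241 and 4563 ± 185, a rise of 0.63 ± 0.077 in rESC-RPC2 (adjusted p = 9.36e-05).

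Among 16 tested genes of growth control and the ribosomal kinases, the Myc family, whose factors drive transcription of ribosomal protein genes, changed in opposite directions. Mycn fell from 3230 ± 104 in P-RPC to 1143 ± 418 in rESC-RPC1 and 997 ± 94.9 in rESC-RPC2 (-1.56 ± 0.21 and -1.70 ± 0.21, adjusted p = 0.000114 and 5.71e-05), and Mycl fell by 1.39 and 1.14 on the log2 scale. Myc rose from 161 ± 18.9 to 418 ± 135 and 538 ± 58.0 (1.33 ± 0.22 and 1.74 ± 0.22, adjusted p = 0.000518 and 7.30e-05). Rictor and Rps6kb1, which encode a subunit of mTOR complex 2 and an S6 kinase, were called lower in rESC-RPC1 (-1.33 ± 0.13 and -1.19 ± 0.15). The translational repressor gene Eif4ebp1 was called higher in both rESC-RPCs (1.04 ± 0.32 and 1.44 ± 0.32, adjusted p = 0.0160 and 0.00263).

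Markers of the cells in each group were also measured. Of 11 retinal progenitor markers on the array, 10 were detected on all P-RPC arrays, 8 on all rESC-RPC1 arrays and 7 on all rESC-RPC2 arrays, and their summed signal was 62910 to 66374, 22987 to 26331 and 17970 to 19286 in that order. Of 6 photoreceptor markers 5 were detected in P-RPC and 1 in each rESC-RPC group, red blood cell and microglia markers were detected on all arrays of P-RPC alone (1 of 4 and 4 of 8), lens markers summed to between 1793 and 129442 over the P-RPC arrays, and 5 of 8 mesenchymal markers were detected in both rESC-RPCs (sums of 17531 to 42941 and 9225 to 16728, against 702 to 795 in P-RPC). The neuron markers summed to 39034 to 43148 in rESC-RPC2 and to 14355 to 22276 elsewhere. Of 8 astrocyte and radial glia markers, 3, 6 and 4 were detected on all arrays of P-RPC, of rESC-RPC1 and of rESC-RPC2, and Gfap, the intermediate filament of astrocytes, had means of 59.1 ± 10.4, 3689 ± 194 and 979 ± 442 in that order (SD, n = 3). Of 7 pluripotency markers listed, only 2, Esrrb and Klf4, could be read on the array by a probe set of their own. Of these 2, 0, 2 and 1 were detected, with sums of 157 to 189, 816 to 1443 and 547 to 770. By RT-qPCR the paper found Nanog and Oct4 almost undetectable in both rESC-RPCs and in P-RPC. As a sign of RNA and labelling quality, the ratio of the 3′ to the 5′ control probe set was 1.12 to 1.20 for Gapdh on all 9 arrays, and for beta-actin 9.29 ± 0.575 for P-RPC, 8.47 ± 2.15 for rESC-RPC1 and 4.56 ± 0.711 for rESC-RPC2 (SD, n = 3). The part of these differences in the values of the ribosomal protein genes was not tested.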

How the data were processed

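The 9 samples were hybridised to Affymetrix Rat Genome 230 2.0 arrays, 3 per group, and the samples were grouped by the labels. What the authors deposited are linear intensities, computed as MAS 5.0 signals of 31099 probe sets and scaled so that the mean after trimming 2% from each end was 500.2 on every array. The study's methods name the GeneSpring software for this step. The log2 values were computed here from the deposited signals, with signals under 1 set to 1. The 57 control probe sets were left out, and genes were named through the probe table of the array, in which 20826 probe sets carry 1 symbol, 436 several and 9780 none. The Entrez IDs of 42 of the 44 members were found in the RefSeq table of GRCr8, with the same symbols.

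A gene was tested when its probe set of highest mean log2 was at or above the 50th percentile of all values on at least 3 arrays. Group means were fitted over the 9 arrays together in limma 3.58.1 under R 4.3.3 (lmFit, then eBayes with a variance trend), with Benjamini-Hochberg adjustment over 9956 genes. The calculation was tested on simulated data. Errors are SDs over 3 arrays or limma's standard errors, and the number of arrays limits the precision. No batch or scan date is given in the sources used here.

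The ribosomal protein genes, the other gene lists and the tests were chosen with earlier results of these data known, so no p is given over a list. Genes named are those called at 2-fold, the 5 farthest above and below the members' median in each comparison, untested members, members with the strongest and weakest probe sets or the widest spread, and the called genes of smallest adjusted p of other lists. Rpl34, Rpl11, Rps6, Rpl4, Rpl24, Rpl22, Rpl5, Rpl35a, Rpl7, Rps15, Rps24, the additional probe set of Rpl3, Eef1d, Eef1a1, Nop56, Myc, Eif4ebp1, Gfap, Slc1a3 and Rpl7l1 were named after their values were seen. The alternatives concerned scaling, filter, low values, choice of probe set, variance model, test, a replicate block and each array in turn.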

Additional observations from a re-analysis of the deposited data

How the results depend on the processing

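Over 23 alternatives, none of the 30 differences of members that passed the test turned direction. The 2-fold calls (1, 1 and 0 in rESC-RPC1 against P-RPC, rESC-RPC2 against P-RPC and rESC-RPC2 against rESC-RPC1) became 0 and 0 against P-RPC with the stricter filter, which left Rpl28 untested, and leaving out 1 array gave 1 to 1, 1 to 1 and 0 to 1. The counts at any fold (9, 13 and 8) were 14, 18 and 11 after quantile normalization, 3, 4 and 1 after median centring, 13, 17 and 8 when centred on the members' median, 3, 6 and 4 with no variance trend, 6, 8 and 8 with no filter, 13, 7 and 7 by the methods' t-test unadjusted and 10, 5 and 3 with its p adjusted. Leaving out 1 array gave 3 to 11, 6 to 17 and 6 to 15. In rESC-RPC1 against P-RPC it was 3 without P-RPC replicate 2 or rESC-RPC1 replicate 1 and 4 without rESC-RPC1 replicate 3. In rESC-RPC2 against P-RPC it was 6 without P-RPC replicate 2, 8 without P-RPC replicate 3 and 7 without rESC-RPC2 replicate 3, and between the rESC-RPCs 15 without rESC-RPC2 replicate 1. The members' median in rESC-RPC2 against P-RPC (-0.063) was 0.019 after median centring, 0.0094 when centred on the members' median and between -0.11 and -0.0076 without 1 array, and the spread between replicate arrays of that median was 0.065. Median centring shifted all genes by 0.026, 0.082 and 0.056. Replicate numbers did not pair the arrays (r of deviations -0.041 to 0.27), and with the replicate block the counts at any fold were 9, 15 and 9, with 1, 1 and 0 at 2-fold. The cause of these changes was not tested. Rpl28, Rpl30, Rps13 and Rpl3l were too close to the background for a fold beyond a bound.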
